A study of Salmo salar with 40 samples.

Results

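Untreated Atlantic salmon sampled at day 8 and at day 14 of an exposure study were compared with each other, to describe how the liver transcriptome of control fish moved within 6 days without any treatment. The members were chosen by their labels, as every fish given as a control, and they make up 20 of the 40 fish of the series: 10 at day 8 and 10 at day 14. Other fish of the study received 5 mg per kg of lufenuron, a benzoylurea used against sea lice, and day 8 was 1 day and day 14 was 7 days after that exposure had ended. The controls had a dose of 0 mg per kg on both days, and the labels give them no other allele, agent or treatment. Each library holds the liver RNA of a different fish, measured by poly-A RNA sequencing, so no fish was followed over time. The replicate numbers serve here as names of fish. Tank, feeding, hour of sampling, age, sex and strain are not stated in the sources at hand. A difference between the days therefore includes any difference in these. The p-values of genes measure the spread between fish within groups, estimated over all 40 fish of the series. Those of body size rest on the control fish.

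The liver takes up the nutrients of a meal and turns them into glycogen, fat and plasma proteins, and between meals it draws on these stores and recycles its own contents by autophagy. Growth hormone from the pituitary makes it secrete insulin-like growth factor I (IGF-I), which drives growth of the body in fish as in mammals. Making new protein in the liver depends on ribosomes, which are assembled in the nucleolus, and on chaperones, which fold the new chains.

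Each of the 20 control libraries had 46.3 M to 76.8 M (mega) deposited counts, 57.2 M at the median, spread over 36474 to 38908 genes. Levels are given as CPM, counts scaled to the library's total as adjusted by TMM, a scaling between libraries. They compare 1 gene between fish and not different genes with each other, and 1 CPM stood for at least 42.7 reads. Markers of hepatocytes, the main cells of the liver, summed to between 199336 and 299017 CPM at day 8 and between 225582 and 324603 CPM at day 14, and 3 of their 49 measured genes rose and 1 fell. Markers of exocrine pancreas summed to 12.4 to 106.5 CPM at day 8 and to 14.2 to 118.2 CPM at day 14, the highest being fish 9 of each day, and none of the 18 measured genes was called. Markers of red blood cells, which keep a nucleus and carry RNA in fish, summed to 1285 to 2492 CPM at day 8, with a median of 1628, and to 1566 to 3638 CPM at day 14, with a median of 2448. In a bulk sample, more cells of a type and more RNA per cell cannot be told apart.

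The fish weighed 37.6 ± 2.5 g at day 8 and 39.1 ± 16.5 g at day 14 (SD, n = 10 each), a difference of 1.5 g (two-sided permutation test with 100000 resamples, p = 0.800, adjusted over 3 measures 0.895). Day 14 fish 6, 7 and 10 weighed 18, 18 and 17 g. The condition factor, 100 times the weight over the cube of the length, was 1.07 ± 0.051 at day 8 and 0.925 ± 0.266 at day 14 (p = 0.109, adjusted 0.328). It was 0.401 in fish 7 and 0.465 in fish 10, against 0.970 to 1.14 in the other day 14 fish, so that the weight or length recorded for these fish is doubtful. Without the 3 light fish, day 14 controls weighed 48.3 ± 9.0 g (n = 7), 10.7 g above day 8. These fish were left out by their weight, under 20 g. A test of weight in the remaining fish therefore cannot show whether the days differed, and its p-value is not given.

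Among the 30397 genes tested, 3150 rose from day 8 to day 14 (10.4%) and 2727 fell (8.97%). Rose and fell mean an adjusted p under 0.05 in edgeR's quasi-likelihood test over all genes, with 1 mean per group and all 40 fish in the fit, and such genes are named as called below. Log2 fold changes of single genes are given ± SE from this fit, with 10 fish per group. Together 19.3% of the genes tested were called, 9770 genes had an unadjusted p under 0.05, and the median log2 fold change over all genes, day 14 minus day 8, was -0.0046. Most changes were small, with a median size of 0.64 on the log2 scale among the called genes, and 581 rises and 744 falls were larger than 2-fold. Only 119 rises and 256 falls passed a test against a fold change of 1.5, among them 44 of the 428 called genes of the lists described below. The split depended on the scaling: with total counts as the only scaling, 1957 genes rose and 3051 fell, so that rises made up 39.1% of the calls instead of 53.6%.

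All 10 day 14 fish lay above all 10 day 8 fish for 67 genes (0.22% of those tested) and below them for 143 (0.47%). Along the first principal component of all 40 fish, computed on the 5000 most variable genes and covering 18.6% of their variance, day 8 controls lay between -44.6 and 1.07 and day 14 controls between 15.9 and 57.1. The groups did not overlap there. Day 8 fish 1 and 3 were at the ends of their group and day 14 fish 7 was the lowest of its group. Without these 3 fish, an alternative added after seeing the data, 6316 genes were called. Day 8 fish 3 and day 14 fish 7 lay nearest the other day, so leaving them out favours a higher count. The number called was 4738 to 6928 when each of the 20 control fish was left out in turn.

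Genes were grouped into 37 lists by function, and each list is described by how many of its measured members were called, beside the 10.4% of all genes that rose and the 8.97% that fell. The lists were chosen with earlier results of these data known, so a high share is a description and not a test. The lists with the highest share of rises concerned protein production. Of 42 measured cytosolic chaperone genes, 32 rose and none fell. Of 70 genes of ribosome biogenesis 42 rose and 1 fell, and of 45 transfer RNA ligases 24 rose and none fell. The lists with the highest share of falls were autophagy, with 22 of 55 genes lower and 2 higher, genes induced by fasting or restraining growth, with 14 of 48 lower and 3 higher, and DNA replication and mitosis, with 16 of 55 lower and 2 higher.

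**Figure D1:**
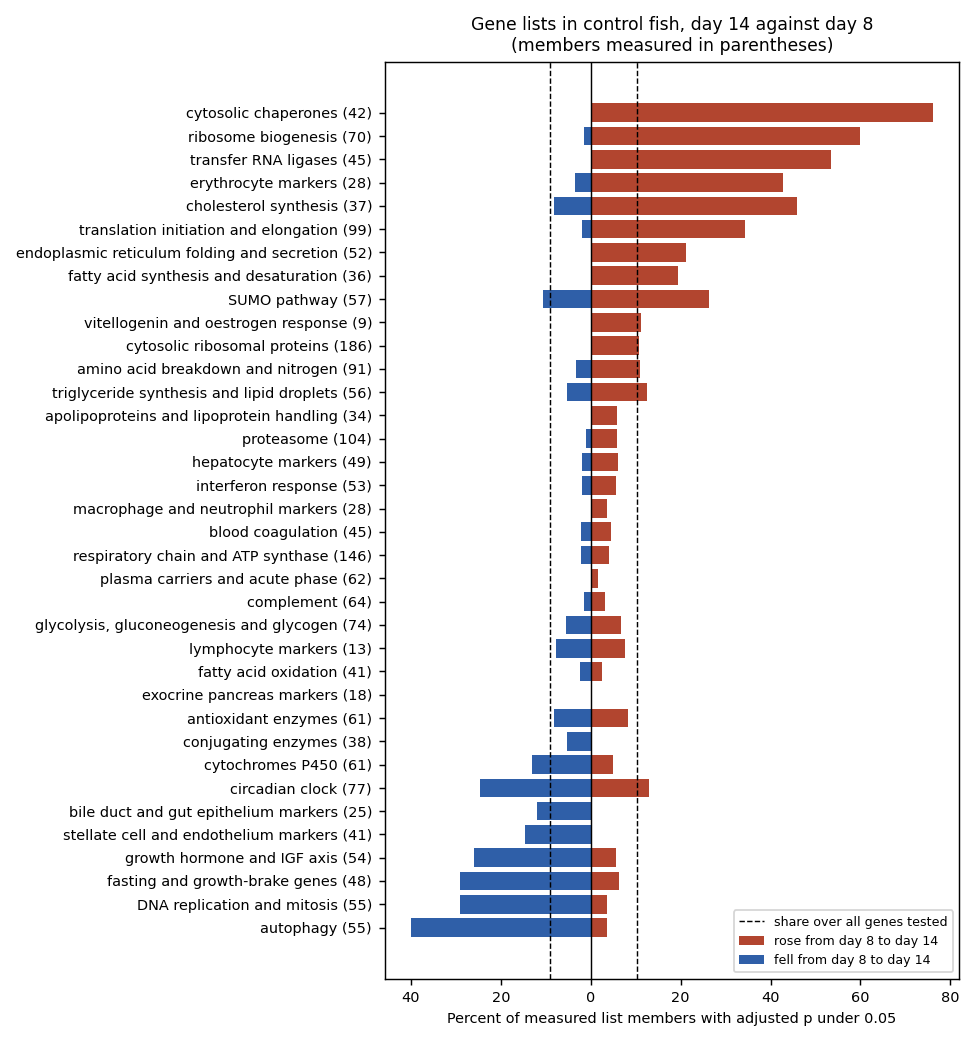
Percent of the measured members of each gene list with an adjusted p under 0.05 in control fish, to the right of 0 for genes higher at day 14 and to the left for genes lower; dashed lines mark the shares over all genes tested, 10.4% and 8.97%, the number of measured members is in parentheses, and the 1-member adipocyte list is not drawn. Cytosolic chaperones, ribosome biogenesis and transfer RNA ligases reach furthest to the right, and autophagy reaches furthest to the left.

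Of 70 measured genes of ribosome assembly, 42 rose and 1 fell, a share of rises of 60% against 10.4% of all genes. LOC106563613, a UTP14A-like protein of the complex that processes ribosomal RNA, ranged over 9.85 to 19.3 CPM with a median of 15 at day 8 and over 19.6 to 37.3 CPM with a median of 32.6 at day 14 (log2 fold change 1.06 ± 0.15, adjusted p = 7.35e-06). Every day 14 fish was above every day 8 fish for this gene. LOC106563393, the dyskerin-like subunit of the complex that places pseudouridines in ribosomal RNA, ranged over 7.95 to 34.9 CPM with a median of 19.8 and then over 22.7 to 88.6 CPM with a median of 66.7 (log2 fold change 1.57 ± 0.26, adjusted p = 3.91e-05). Its groups overlapped through day 14 fish 7, the lowest of its group at 22.7 CPM where the next fish had 48.9. Further genes of this list were nop56, part of the box C/D particles that guide methylation of ribosomal RNA, with a log2 fold change of 0.87 ± 0.17, dkc1, the other dyskerin gene, with 0.76 ± 0.17, and LOC106587248, an MPP10-like protein, with 0.87 ± 0.21. The list's median log2 fold change was 0.54, and 63 of its 70 measured members had a positive one.

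Of 186 measured genes of the cytosolic ribosome, 20 rose and none fell, a share of rises of 10.8% against 10.4% of all genes, and their median log2 fold change was 0.16. The number that rose was 42 without day 8 fish 3, 35 without day 8 fish 9, 13 without day 8 fish 1, 4 or 10 or day 14 fish 2 or 9, and 30 in DESeq2. Those that rose included the subunit proteins rs29 with a log2 fold change of 0.73 ± 0.15, rpl38 with 0.62 ± 0.15 and rl39 with 0.57 ± 0.12. LOC106606640, an L3-like copy expressed at a low level, went from a median of 1.41 to 5.15 CPM (log2 fold change 1.54 ± 0.24, adjusted p = 2.33e-05). LOC106566201, an L32-like gene, had a log2 fold change of 2.42 ± 0.69 (adjusted p = 0.0115) that rested on day 14 fish 9 at 116.2 CPM and fish 3 at 43.4 CPM, while its medians were 3.11 and 3.78 CPM. Without fish 9 it was 1.20 (adjusted p = 0.148). The assignment of reads shared by near-identical copies is not stated, so values of single copies of such families are uncertain.

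Many genes of the machinery that loads amino acids and starts translation rose as well. Among the transfer RNA ligases, wars, which charges the tryptophan transfer RNA, ranged over 4.39 to 29.2 CPM with a median of 15 at day 8 and over 14 to 54.2 CPM with a median of 30.9 at day 14 (log2 fold change 0.98 ± 0.25, adjusted p = 0.00441). The serine ligase LOC106567354 had a log2 fold change of 0.66 ± 0.16, and the called ligases lay between 0.44 and 1.07. Of 99 initiation and elongation factors 34 rose and 2 fell. They included LOC106610956, an eIF5-like factor that helps to choose the start codon, with 0.68 ± 0.11, LOC106587155, an eIF4G-like scaffold, with 0.89 ± 0.17, and ef1a, a copy of the elongation factor that brings transfer RNAs to the ribosome, with 1.26 ± 0.21. LOC106611136, an ornithine decarboxylase 1-like gene of polyamine synthesis, ranged over 1.25 to 31.1 CPM with a median of 12.9 and then over 6.89 to 183 CPM with a median of 90.5 (log2 fold change 2.73 ± 0.45, adjusted p = 5.62e-05). Day 8 fish 1 stood lowest and apart from the rest of its group (Dixon's outlier limit) in this gene, in wars and in 8 further genes described here.

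Red cell markers also rose more often than they fell. Of 28 measured red cell markers 12 rose and 1 fell, with a median log2 fold change of 0.63. In a fit that had their summed level, in log2, as a covariate, chosen after the data were seen, 10 ligases, 20 translation factors and 11 ribosomal proteins rose in place of 24, 34 and 20. With total counts as the only scaling 12 ligases rose. In the fit with the covariate 29 of the ribosome biogenesis genes and 25 of the chaperones rose, and 3066 genes were called in all. Of the single genes described here, the calls of grp78, LOC106571543, lss, LOC106610271, LOC106607281, LOC106598425, ghr1, LOC106583637, sqstm1, LOC106587531, LOC106583283, LOC106573310, tdo2, cfhr5, LOC106604508, gata1, LOC100136576 and LOC106607371 were lost in that fit, at adjusted p-values of 0.0521 to 0.933. gata1 and LOC106607371 are among the markers that the covariate sums, so the loss of their calls was built into this fit. LOC100136576, at 0.933, is a beta globin as well. The covariate itself differs between the days, and its part in the counts given here was not tested.

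Chaperones of the cytosol rose most. LOC106601018, a member of the HSP70 family that holds unfolded chains, ranged over 0.0212 to 1.74 CPM with a median of 0.453 at day 8 and over 2.24 to 60.0 CPM with a median of 3.87 at day 14 (log2 fold change 4.20 ± 0.65, adjusted p = 2.25e-05), with no overlap of the groups. hs90a, an HSP90 gene of the stress-inducible type, ranged over 0.636 to 1.65 CPM with a median of 1.13 and then over 1.16 to 215 CPM with a median of 10.6 (log2 fold change 4.73 ± 0.79, adjusted p = 6.22e-05). It is in none of the gene lists and is not counted among the 32 rises. Its spread at day 14 was wide: fish 8 stood at 215 CPM, fish 3 at 1.16 CPM within the day 8 range, and the other 8 fish in between. Without fish 8 the log2 fold changes were 3.11 for hs90a (adjusted p = 3.49e-04), 3.17 for LOC106601018 and 2.25 for LOC106608136, a further HSP90-alpha-like gene with 3.06 ± 0.55 in all fish.

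The helpers of these chaperones moved with less scatter. LOC106584850, a DNAJA4-like cochaperone that delivers clients to HSP70, ranged over 1.17 to 16.1 CPM with a median of 8.53 at day 8 and over 18.6 to 119 CPM with a median of 50.3 at day 14 (log2 fold change 2.66 ± 0.37, adjusted p = 5.78e-06). LOC106563457, a STIP1-like adaptor that links HSP70 to HSP90, ranged over 11.5 to 28.1 CPM with a median of 24.2 and then over 29.9 to 86.1 CPM with a median of 58.8 (log2 fold change 1.27 ± 0.19, adjusted p = 1.67e-05). For both genes every day 14 fish was above every day 8 fish. Of 16 measured HSP70 family genes 12 rose, with a median log2 fold change of 1.22 over the 16, and of 15 subunits of the chaperonin ring that folds actin and tubulin 13 rose, with a median of 0.55. The constitutive HSC70-like LOC106613013 had a log2 fold change of 1.35 ± 0.23. LOC106581278 and LOC106613072, which are serpin H1-like collagen chaperones of the endoplasmic reticulum kept in the same list, had 1.48 ± 0.24 and 2.63 ± 0.61. These subgroups were formed after the values were seen.

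Among chaperones of the endoplasmic reticulum, where secreted proteins fold, 11 of 52 genes rose and none fell. The main lumenal chaperone grp78 ranged over 284 to 1828 CPM with a median of 823 at day 8 and over 526 to 3889.6 CPM with a median of 1619 at day 14 (log2 fold change 1.03 ± 0.33, adjusted p = 0.0241), and without day 14 fish 2 its log2 fold change was 0.85 (adjusted p = 0.0692). With the replicate number as a block the log2 fold change of grp78 was 1.12 (adjusted p = 0.0803). LOC106567149, a second grp78-like gene, had 1.51 ± 0.41, the calreticulin-like LOC106599148 had 1.19 ± 0.23 and the calnexin-like LOC106591956 had 0.97 ± 0.19. With the red cell covariate 5 genes of this list rose, and with total counts as the only scaling 7. Without day 8 fish 1, 2, 4, 5, 6, 8 or 10 or day 14 fish 2, 5, 6, 8 or 10 the number called was 5 to 7, without day 8 fish 3 it was 18, and without a filter on low counts 6. Of 104 proteasome genes, the breakdown side of protein turnover, 6 rose and 1 fell, and without the 3 light day 14 fish 12 rose and 3 fell. The number of proteasome genes called was 19 without day 8 fish 3 or day 14 fish 3, 21 without day 14 fish 7, 4 without day 8 fish 8 or 10 or day 14 fish 2 or 9, and 12 in DESeq2.

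Genes of cholesterol synthesis rose at most steps of the pathway, and none of the receptors that take up cholesterol was called higher. Of 37 measured genes of the list 17 rose and 3 fell, with a median log2 fold change of 0.48. LOC106605924, a farnesyl pyrophosphate synthase-like gene of the middle of the pathway, ranged over 15.8 to 99.2 CPM with a median of 52.9 at day 8 and over 69.6 to 187 CPM with a median of 138 at day 14 (log2 fold change 1.26 ± 0.26, adjusted p = 6.16e-04). The isomerase idi1, which acts just before it, ranged over 26.5 to 115 CPM with a median of 66.7 and then over 102 to 241 CPM with a median of 154 (log2 fold change 1.11 ± 0.23, adjusted p = 7.40e-04). In both genes 2 or 3 day 8 fish reached the lowest day 14 value.

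The late enzyme lanosterol synthase, lss, named after its values were seen, had medians of 111 and 176 CPM (log2 fold change 0.66 ± 0.19, adjusted p = 0.0123). The decarboxylase LOC106562275 had a log2 fold change of 0.88 ± 0.18, and insig1, which holds the sterol sensor in the endoplasmic reticulum when sterols are plentiful, had 0.73 ± 0.17. LOC106571543, an HMG-CoA synthase whose cytosolic or mitochondrial type the file does not give and which is therefore in no list, had 1.04 ± 0.30 at a median of 232 CPM at day 8. Among the last steps, values with adjusted p above 0.05 were 0.25 ± 0.16 for sc5d and 0.18 ± 0.15 for dhcr7. Of 4 genes named as LDL receptors, which bring cholesterol in from the blood, 2 fell and 2 were not called. Their log2 fold changes ran from -0.68 to 0.73, with a median of -0.017. Of the falls, LOC106601326 was at 88.9 to 158 CPM with a median of 139 at day 8. At day 14 it was at 45.3 to 148 CPM with a median of 76 (log2 fold change -0.67 ± 0.14, adjusted p = 6.10e-04). With the red cell covariate 6 genes of the list rose and 1 fell.

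**Figure D2:**
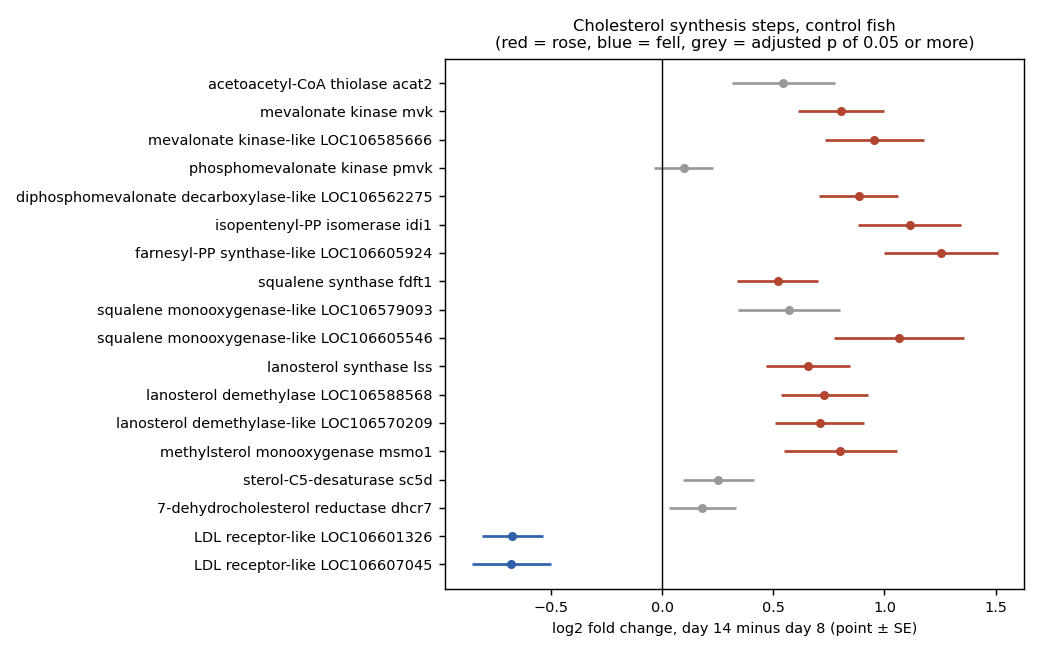
Log2 fold change, day 14 minus day 8, with its SE in control fish for some enzymes of cholesterol synthesis in pathway order from top to bottom, and for 2 LDL receptor-like genes; red points rose, blue points fell and grey points had an adjusted p of 0.05 or more. The enzymes plotted lie to the right of 0, between 0.10 for pmvk and 1.26 for LOC106605924. Both receptors plotted lie to the left, at -0.67 and -0.68. The genes plotted are a selection: of the 37 measured genes of the list 17 rose and 3 fell, and not all 3 falls are drawn. The 4 LDL receptor genes of the list ran from -0.68 to 0.73. Those drawn are the 2 that fell, and the 2 that were not called are left out.

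Fat synthesis and storage genes rose in part. LOC106608500, an acyl-CoA desaturase-like gene that makes monounsaturated fatty acids, ranged over 16.7 to 47.4 CPM with a median of 26.1 at day 8 and over 58.1 to 108 CPM with a median of 77.4 at day 14 (log2 fold change 1.47 ± 0.17, adjusted p = 2.84e-07), without overlap. LOC106610271, like fatty acid synthase, had a log2 fold change of 1.11 ± 0.27, the carboxylase acaca, which makes the building block of fatty acids, had 0.72 ± 0.15, and LOC106607281, the citrate enzyme that supplies acetyl-CoA in the cytosol, had 0.56 ± 0.15. LOC106606632, like the transcription factor SREBP-1 that controls these enzymes in mammals, had 0.60 ± 0.15. In all 7 of the 36 genes of fatty acid synthesis rose and none fell. With the red cell covariate 3 rose.

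The coat proteins of lipid droplets stood out among the genes of triglyceride storage. The perilipin-2 genes plin2 and LOC100380740, whose products cover the droplets, had log2 fold changes of 1.499 ± 0.25 and 1.72 ± 0.29. LOC100380740 ranged over 17.7 to 109.9 CPM with a median of 36.1 at day 8 and over 84.2 to 179 CPM with a median of 138 at day 14, with day 8 fish 7 alone above 46.5 CPM at the earlier day. LOC106578699, a LPIN2-like phosphatase that makes diacylglycerol, ranged over 12.7 to 18.8 CPM with a median of 16.5 and then over 19.5 to 36 CPM with a median of 27 (log2 fold change 0.72 ± 0.10, adjusted p = 7.82e-06), and the acyltransferase plcc had 0.45 ± 0.10. Neither of these last genes overlapped between the days. The list as a whole had 7 rises and 3 falls among 56 genes and a median of 0.04, close to all genes. Fatty acid oxidation had 1 rise and 1 fall among 41 genes, and 7 calls without day 14 fish 7.

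Lipid transport changed in few genes. LOC106613694, like the lipoprotein lipase that frees fatty acids from circulating fat, had medians of 6.34 and 22.9 CPM (log2 fold change 1.76 ± 0.35, adjusted p = 5.87e-04). LOC106598425, like angiopoietin-related protein 3, an inhibitor of that lipase secreted by the liver, had 367 and 617 CPM (log2 fold change 0.65 ± 0.16, adjusted p = 0.00377). Among 34 genes of apolipoproteins and lipoprotein handling, a list without LOC106598425, 2 rose and none fell. The log2 fold changes of these 2 were 0.46 and 1.76, and 1 gene of the list was called without any 1 of 10 fish.

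Genes of the growth hormone and IGF axis fell more often than they rose. Of 3 genes named as IGF-I, 2 fell. LOC100136517 ranged over 38.3 to 168 CPM with a median of 91.7 at day 8 and over 14 to 107 CPM with a median of 22.9 at day 14 (log2 fold change -1.46 ± 0.31, adjusted p = 8.59e-04), and LOC106609475 had a log2 fold change of -1.70 ± 0.33. The third gene, LOC106572168, named after its values were seen, had 0.13 ± 0.30 at medians of 0.423 and 0.584 CPM (adjusted p = 0.807). Day 14 fish 4 lay within the day 8 range for both genes that fell, as did fish 3 and 8 for LOC100136517, and day 8 fish 3 had the lowest day 8 value of both. Of 54 measured genes of the axis 14 fell and 3 rose, with a median of -0.20.

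On the receptor side, 2 of 3 growth hormone receptor genes fell, and the third was not called, at a log2 fold change of -0.072. The receptor LOC100136463 had -0.54 ± 0.13. The receptor ghr1, named after its values were seen, ranged over 49.2 to 170.2 CPM with a median of 111 at day 8. At day 14 it ranged over 2.18 to 90.4 CPM with a median of 28.2 (log2 fold change -1.47 ± 0.42, adjusted p = 0.0121). LOC106567289, a SOCS2-like inhibitor that growth hormone itself induces in mammals, had -1.73 ± 0.43. Of the proteins that carry IGF in blood, LOC106601095, like the large subunit of the complex that keeps it there, had -0.63 ± 0.14. The binding protein gene igfbp-1b2, named after its values were seen, had -1.60 ± 0.47 (adjusted p = 0.015). Of 14 IGF binding protein genes measured these 2 fell and 12 were not called. The median of the 14 was 0.085 and the highest value 1.01. LOC106586664, like IRS2, the docking protein of the insulin receptor, ranged over 15.6 to 50.8 CPM with a median of 41.4 and then over 10.1 to 39.1 CPM with a median of 17 (log2 fold change -0.88 ± 0.19, adjusted p = 0.00117). Without the 3 light day 14 fish 9 genes of the axis fell and 1 rose. Without the 11 fish of the series over 50 CPM of pancreas markers 9 fell and 2 rose. Only 2 of these 11 were controls, fish 9 of each day, and the others were exposed fish. The adjusted p of igfbp-1b2 was 0.0848 without the light fish and 0.0639 without the fish high in pancreas markers, and that of ghr1 was 0.0704 without the latter. With the red cell covariate 7 fell and none rose.

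Several genes that fasting or low energy induce in mammals fell. The list shares 3 called IRS2 genes with the growth axis. LOC106592479, like DDIT4, an inhibitor of the growth kinase mTORC1, ranged over 0.95 to 14.7 CPM with a median of 9.8 at day 8 and over 0.0401 to 2.19 CPM with a median of 0.277 at day 14 (log2 fold change -4.06 ± 0.51, adjusted p = 1.16e-06), the largest called fall among genes with a usable name, a mean of at least 1 CPM and at least 8 of 10 fish beyond the day 8 median. The ranges overlapped only through day 8 fish 3 at 0.95 CPM and day 14 fish 5 and 8 at 1.45 and 2.19 CPM. A second DDIT4-like gene, LOC106577395, had -2.55 ± 0.40. The kinases LOC106588934 and LOC106570467, which switch off pyruvate oxidation, had -1.36 ± 0.28 and -0.80 ± 0.17. Among the 3 genes of this list that rose was LOC106583637, a KLF15 gene, at medians of 0.029 and 0.363 CPM (log2 fold change 2.50 ± 0.77, adjusted p = 0.0184). Its adjusted p was 0.128 without the 3 light fish. With the red cell covariate 9 genes of the list fell and 1 rose.

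Autophagy genes fell at several steps of the process. The starting kinases fell in all 5 copies measured: LOC106612954, ULK2-like, ranged over 14.3 to 64.8 CPM with a median of 40.4 at day 8 and over 3.19 to 19.8 CPM with a median of 7.11 at day 14 (log2 fold change -2.02 ± 0.29, adjusted p = 6.20e-06), LOC106581221 had -2.33 ± 0.40 and the ULK1-like LOC106579916 had -1.21 ± 0.27. Of 8 genes for ATG2 and ATG9, which bring lipid to the growing membrane, 7 fell. map1lc3b, whose product marks the finished membrane, had -0.75 ± 0.12, and LOC106611244, like a partner of beclin 1, had -0.64 ± 0.14. The cargo receptor sqstm1, whose protein autophagy itself degrades, was 1 of the 2 that rose (log2 fold change 0.55 ± 0.19, adjusted p = 0.0346). Its call was lost when any 1 of 8 fish was left out, at an adjusted p of up to 0.0932 without day 14 fish 6, and without the 3 light fish, at 0.115. The median of the list was -0.31. The number of falls was 13 without the 3 light day 14 fish and 9 with the red cell covariate. It was 14 without the 11 fish high in pancreas markers, of which 2 were controls. The number of autophagy genes called in either direction, 24 in all fish, was 12 without day 8 fish 1 or day 14 fish 10, 13 without day 14 fish 6 and 14 without day 14 fish 9.

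Other large falls were in single genes of hormone and growth factor signalling. LOC106611368, like the deiodinase that makes active thyroid hormone, ranged over 5.18 to 76.6 CPM with a median of 39.1 at day 8 and over 1.93 to 11.4 CPM with a median of 3.42 at day 14 (log2 fold change -3.08 ± 0.41, adjusted p = 2.34e-06). LOC106605529, KLF10, a transcription factor first known for its induction by TGF-beta, ranged over 6.78 to 62 CPM with a median of 33.1 and then over 1.01 to 10.2 CPM with a median of 3.31 (log2 fold change -2.79 ± 0.43, adjusted p = 2.46e-05). At day 8, 1 fish in LOC106611368 and 2 fish in LOC106605529 lay at or below the highest day 14 value. Among 6 vitamin D hydroxylase genes of the P450 list 3 fell: LOC106565446 with -3.25 ± 0.76, and, named after their values were seen, LOC106587531 with -2.62 ± 0.85 and LOC106583283 with -1.59 ± 0.51. Without the 3 light day 14 fish the adjusted p of the last 2 were 0.0857 and 0.0780, without the fish high in pancreas markers 0.103 and 0.112, and without day 8 fish 9 0.0562 and 0.0527.

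**Figure D3:**
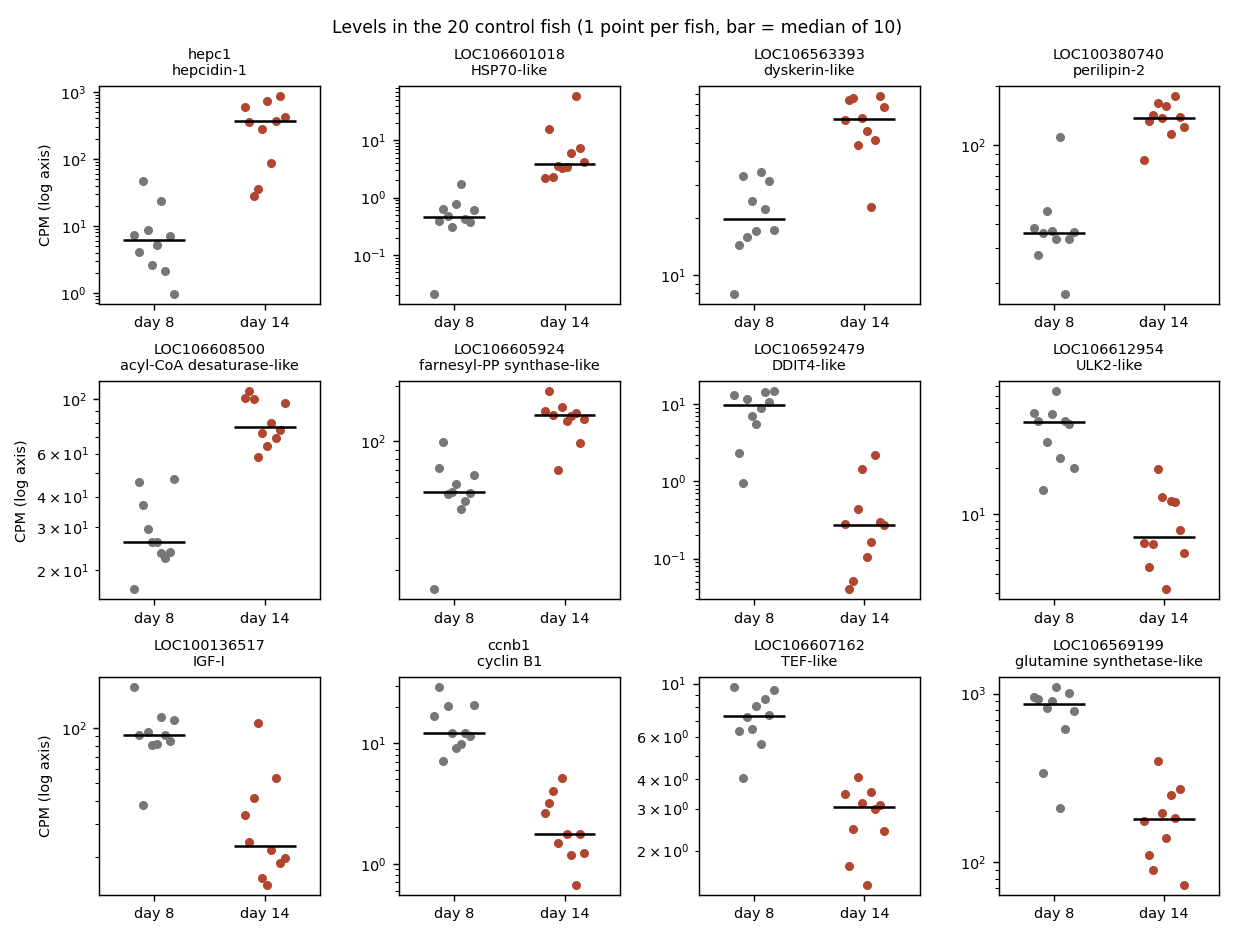
CPM on a log axis of 12 genes in each of the 20 control fish, with 1 point per fish and a bar at the median of 10. HSP70-like LOC106601018, desaturase-like LOC106608500 and cyclin B1 do not overlap between the days, while hepc1 and IGF-I LOC100136517 have fish of one day within the range of the other.

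Mitosis genes fell together. The 16 genes of the list that fell were those of a subgroup of mitotic cyclin, kinase and spindle genes, with log2 fold changes from -2.68 to -1.34. This subgroup was formed after the values were seen. ccnb1, the cyclin that drives entry into mitosis, ranged over 7.14 to 29.3 CPM with a median of 12.1 at day 8 and over 0.669 to 5.17 CPM with a median of 1.76 at day 14 (log2 fold change -2.68 ± 0.34, adjusted p = 1.26e-06). The related cyclin ccnb2, the spindle protein tpx2 and cdc20, which triggers the separation of chromosomes, had -2.39 ± 0.38, -2.11 ± 0.28 and -2.02 ± 0.34, and for all 4 genes every day 14 fish was below every day 8 fish. The mitotic kinase plk1 and the topoisomerase top2a, named after their values were seen, had -1.87 ± 0.38 and -1.70 ± 0.37. The medians of top2a were 48.4 CPM at day 8 and 13.6 CPM at day 14.

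None of 22 genes for the replication helicase, its clamp and nucleotide supply was called, with a median of -0.049. The G1 cyclins, which start the cycle, had 2 rises among 13 genes, the higher in LOC106587137, cyclin D1, with medians of 8.4 and 19.4 CPM (log2 fold change 1.13 ± 0.16, adjusted p = 5.64e-06). Outside the list, LOC106564352, a thymidine kinase, had -2.25 ± 0.25, LOC106576277, like a partner of the clamp PCNA, had -2.51 ± 0.28, and the spindle genes LOC106578831, KIF20B, and LOC106610270, like sperm-associated antigen 5, had -2.70 ± 0.41 and -2.71 ± 0.40. The first 3 of these did not overlap between the days. The split of the list by role was made after the values were seen, and the difference between the subgroups was not tested.

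**Figure D4:**
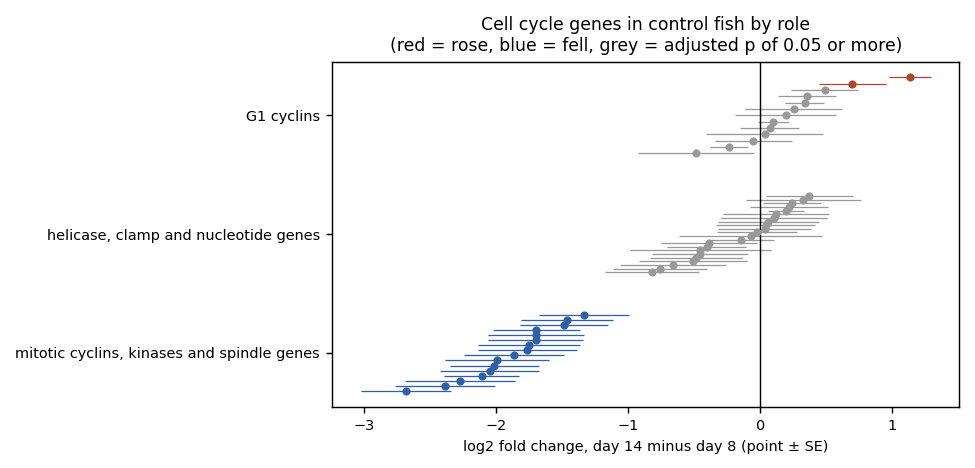
Log2 fold change, day 14 minus day 8, with its SE for genes of the DNA replication and mitosis list in control fish, by role. Red points rose, blue points fell and grey points had an adjusted p of 0.05 or more. The roles were formed after the values were seen. Of the 55 measured members, those in none of the roles are not drawn, and none of them was called. The 16 mitotic genes lie between -2.68 and -1.34, and none of the 22 helicase, clamp and nucleotide genes was called.

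Clock genes fell more often than genes in general, while their share of rises was nearer to that of all genes. Of 77 measured genes 19 fell and 10 rose, with a median of -0.11. The falls were 24.7% against 8.97% of all genes, and the rises 13.0% against 10.4%. The falls were most frequent among the PAR bZIP factors, which carry the rhythm of the clock to metabolic genes in mammals, with 9 of 13 lower and none higher. LOC106607162, like thyrotroph embryonic factor, ranged over 4.03 to 9.71 CPM with a median of 7.34 at day 8 and over 1.44 to 4.05 CPM with a median of 3.04 at day 14 (log2 fold change -1.36 ± 0.15, adjusted p = 1.55e-07), and its ranges touched in 1 fish of each day. The second such gene LOC106601241 had -1.38 ± 0.21, and the hepatic leukemia factor-like LOC106605810 and LOC106605773 had -1.06 ± 0.16 and -0.95 ± 0.14.

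In the core loop, the repressor gene LOC106563389, period 1-like, ranged over 17.2 to 59.3 CPM with a median of 38.1 and then over 12.6 to 33.5 CPM with a median of 15.7 (log2 fold change -1.02 ± 0.18, adjusted p = 9.23e-05), and the cryptochrome 1-like LOC106583488, named after its values were seen, had -2.05 ± 0.47. LOC106573310, like the repressor BHLHE41 and also named after its values were seen, had 1.26 ± 0.33. Of the REV-ERB repressor genes 4 of 8 fell and 2 rose, of the ROR activators 3 of 12 rose and none fell, and of 14 genes for CLOCK and BMAL, which drive the loop, 1 fell. Since the hour of sampling is not given, a change between the days cannot be told apart from a difference in the hour of day.

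Abundant genes of amino acid and sugar metabolism changed singly. LOC106569199, like glutamine synthetase, which binds ammonia, ranged over 211 to 1098 CPM with a median of 863 at day 8 and over 73.4 to 397 CPM with a median of 179 at day 14 (log2 fold change -2.02 ± 0.28, adjusted p = 4.59e-06). LOC106560893, like tyrosine aminotransferase, had medians of 1501 and 558 CPM (log2 fold change -1.12 ± 0.24, adjusted p = 0.00113), and tdo2, which opens the breakdown of tryptophan, had 511 and 319 CPM (log2 fold change -0.66 ± 0.17, adjusted p = 0.00419). These 3 genes fell, while of 91 genes of amino acid breakdown, a list without LOC106569199, 10 rose and 3 fell. The rises were 11.0% and the falls 3.3%, against 10.4% and 8.97% of all genes, and the median log2 fold change was 0.064. Without day 8 fish 6, 8 genes of the list were called.

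LOC106580581, like glucokinase, which traps glucose in the liver cell, ranged over 119 to 3828 CPM with a median of 1626 at day 8 and over 77.5 to 1238 CPM with a median of 635 at day 14 (log2 fold change -1.53 ± 0.51, adjusted p = 0.0309). Its call was lost without day 8 fish 2, 8 or 9 or day 14 fish 9, at an adjusted p of up to 0.0666. It was also lost without the 3 light fish, at 0.0774, without the fish high in pancreas markers, at 0.122, and without a filter on low counts, at 0.0566. With the replicate number as a block the log2 fold change of LOC106580581 was -1.15 (adjusted p = 0.253). Of 74 genes of sugar metabolism 5 rose and 4 fell, and of 146 genes of the respiratory chain 6 rose and 3 fell. In the respiratory chain 15 genes were called without day 8 fish 3 and 17 without day 14 fish 7. Among all 362 genes with a mean of at least 300 CPM, 29 were called, or 8.01%.

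Hepcidin had the largest rise among the genes named by size. hepc1, the hormone that closes the iron exporter of other cells, ranged over 0.971 to 46 CPM with a median of 6.16 at day 8 and over 28.2 to 877 CPM with a median of 362 at day 14 (log2 fold change 5.13 ± 1.00, adjusted p = 4.14e-04). The ranges met in day 8 fish 3 at 46.0 CPM and day 14 fish 3 and 4 at 28.2 and 35.3 CPM. The second gene, LOC106584587, ranged over 1.29 to 139.9 CPM with a median of 5.07 and then over 2.71 to 1212 CPM with a median of 256 (log2 fold change 3.97 ± 1.06, adjusted p = 0.00745), and was low in the same day 14 fish 3 and 4. Without day 8 fish 3 its log2 fold change was 5.49. LOC106584587 was the 1 called gene among 62 plasma carriers and acute phase genes, an acute phase being the reaction of the liver to infection or injury. hepc1 is in none of the gene lists and so is not part of that count. Of 53 interferon response genes 3 rose and 1 fell, and of 64 complement genes 2 rose and 1 fell. The calls were 5 among plasma carriers and acute phase genes without day 8 fish 3, 7 among interferon genes without day 8 fish 3 or 10 or day 14 fish 4, and 5 among complement genes without day 14 fish 4 or 5.

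Among the complement genes, cfhr5 was called higher (log2 fold change 1.91 ± 0.69, adjusted p = 0.0469) with day 14 fish 8 at 394 CPM, and the medians were 11.9 and 9.16 CPM. Without that fish the log2 fold change was -0.19 (adjusted p = 0.823), and the call was also lost without any 1 of day 8 fish 2 to 10. LOC106604508, like the CD8 beta chain of T cells, had medians of 1 and 2.08 CPM (log2 fold change 1.29 ± 0.33, adjusted p = 0.00452). It was the only rise among 13 lymphocyte markers, of which 1 fell, at -1.01, and the median log2 fold change was -0.32. These markers summed to 11.3 to 20.6 CPM at day 8 and 11.5 to 19.4 CPM at day 14. Macrophage and neutrophil markers had 1 rise among 28 genes, and none without day 8 fish 1, 2, 4, 5 or 8 or day 14 fish 6 or 8. Markers of stellate cells and endothelium had 6 falls among 41 genes, and those of bile duct and gut 3 among 25. No stellate cell or endothelium marker was called without day 8 fish 1 or 10 or day 14 fish 5 or 8, 1 to 3 were called without day 8 fish 2, 4 or 6 or day 14 fish 1, 2, 4 or 9, and 1 without a filter on low counts.

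Among the genes of haemoglobin and heme, LOC100136576, a beta globin, ranged over 259 to 479 CPM with a median of 328 at day 8 and over 261 to 730.4 CPM with a median of 535 at day 14 (log2 fold change 0.62 ± 0.19, adjusted p = 0.0165), and LOC106607371 had 0.71 ± 0.19. Of 21 globin genes among the red cell markers, a count without LOC100136576, 9 rose and none fell. gata1, the transcription factor of the red cell line, had 0.89 ± 0.19, and the ammonium transporter LOC106571195 had -0.73 ± 0.18, the 1 fall among the red cell markers. The nucleotidase nt5c3, of a type that mammalian red cells use to clear RNA breakdown products, ranged over 80.1 to 336 CPM with a median of 161 and then over 158 to 1270.4 CPM with a median of 586 (log2 fold change 1.55 ± 0.33, adjusted p = 8.62e-04). LOC106601841, a heme oxygenase 2-like gene that breaks heme down, had -0.75 ± 0.17. Without the 3 light day 14 fish 6 red cell markers rose and 1 fell, and the adjusted p of LOC100136576 was 0.0877. Without day 14 fish 6 alone 7 of these markers rose and 1 fell.

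The genes with the smallest p were of mixed function. Among those that rose, LOC106571747, like tribbles 2, a pseudokinase that steers proteins to degradation, ranged over 2.02 to 4.41 CPM with a median of 3.37 at day 8 and over 6.68 to 18.3 CPM with a median of 11.9 at day 14 (log2 fold change 1.93 ± 0.20, adjusted p = 2.62e-08). LOC106604733, a PCTP-like protein, had 1.64 ± 0.18, LOC106572082, like PHD finger protein 20, had 1.06 ± 0.11 and LOC106599720, like tensin 3, had 0.92 ± 0.11. Among those that fell, LOC106566297, named in the file as like translation initiation factor IF-2, ranged over 2.24 to 10.0 CPM with a median of 7.63 and then over 0.26 to 1.13 CPM with a median of 0.543 (log2 fold change -3.45 ± 0.33, adjusted p = 1.00e-08). LOC106565864, like T-complex protein 11 and not a chaperonin, had -2.76 ± 0.27. None of these 6 genes overlapped between the days.

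SUMO, a small protein attached to other proteins that the series' title names, was followed in the controls as well. Of 57 genes of its pathway 15 rose and 6 fell, with a median of 0.11. LOC106608956, like the protease SENP3 that removes SUMO in the nucleolus, ranged over 1.23 to 5.72 CPM with a median of 2.36 at day 8 and over 3.07 to 12.1 CPM with a median of 8.65 at day 14 (log2 fold change 1.51 ± 0.24, adjusted p = 3.19e-05). The further SUMO protease uspl1 had 0.66 ± 0.15, the SENP5-like LOC106598790 had 0.46 ± 0.10 and the PIAS4-like ligase LOC106613774 had 0.80 ± 0.14. With total counts as the only scaling 9 genes rose and 8 fell, and with the red cell covariate 6 rose and 1 fell.

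The same interval in exposed fish gave 5374 rises (17.7%) and 5235 falls (17.2%), called by the same rule in 20 other fish. Of the 5877 genes called in controls, 4574 were also called in the same direction in exposed fish, which is 77.8% of the control calls and 43.1% of the exposed calls, and 9 were called in the opposite direction. The comparisons share no fish. Over all genes tested the log2 fold changes had a Pearson correlation of 0.702, given as a description across genes, which are not independent. A test of the difference itself called 15 genes (0.0493%), 8 of them as changing more upward in exposed fish (0.0263% of the genes tested) and 7 as changing more downward (0.023%). The count of 15 was 0 to 104 with 1 control fish left out (104 without day 8 fish 1, 48 without day 14 fish 9 and 0 to 11 without any other), 5 without the 3 light fish and 422 with total counts as the only scaling. Fewer calls in controls than in exposed fish therefore do not show, gene by gene, that the change was smaller.

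The chaperone LOC106601018 rose by 4.20 ± 0.65 in controls and 4.84 ± 0.68 in exposed fish, both on the log2 scale. ccnb1 had -2.68 ± 0.34 and -2.33 ± 0.34, and LOC106592479 had -4.06 ± 0.51 and -5.10 ± 0.55. For ribosome biogenesis 60 of 70 genes rose in exposed fish, against 42 in controls. hepc1 had 1.55 ± 0.86 in exposed fish, and LOC106580581 had -0.03 ± 0.50. The tests of the difference in these 5 genes had adjusted p-values above 0.05.

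Among the 15 genes whose day change differed, the 5 with the smallest p were called in exposed fish and not in controls. hdac6, a deacetylase of tubulin, ranged over 2.02 to 5.54 CPM with a median of 2.57 at day 8 and over 1.91 to 8.22 CPM with a median of 3.5 at day 14 in controls, with a log2 fold change of 0.52 ± 0.22, against -1.12 ± 0.22 in exposed fish. Its second copy LOC106572926 had 0.57 ± 0.21 and -0.98 ± 0.21. The ribosome assembly genes LOC106588633, RRP5, and LOC106571345, like midasin, had 0.23 ± 0.20 and 0.09 ± 0.25 in controls and 1.82 ± 0.20 and 1.98 ± 0.26 in exposed fish, and the magnesium transporter s41a2 had -0.18 ± 0.09 and -0.81 ± 0.09. The adjusted p of the difference was 0.0394 for each of these genes. ccr9, a chemokine receptor, had -3.05 ± 0.82 in controls and 2.49 ± 0.80 in exposed fish (adjusted p of the difference 0.0478), and its control value rested on day 8 fish 2 and 9 at 13.7 and 13.1 CPM beside 0.454 to 1.13 CPM in the other 8. Without fish 2 the control value was -2.43 and without fish 9 it was -2.45, each fit still holding the other of these fish. With the replicate number as a block the control value was -1.74 (adjusted p = 0.0867), so the call was lost. In DESeq2 it was -0.84 (adjusted p = 0.0409), and with the red cell covariate -3.96 (adjusted p = 0.00181).

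**Figure D5:**
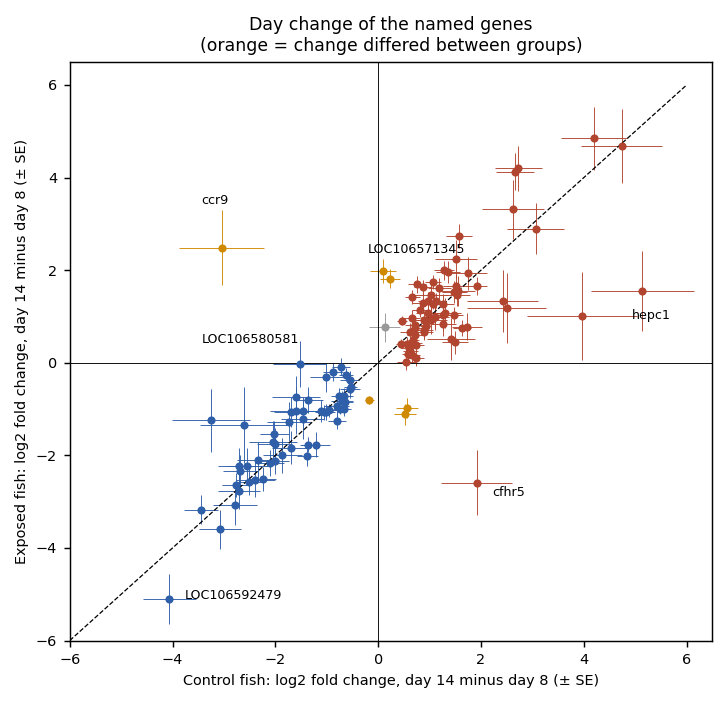
Log2 fold change, day 14 minus day 8, of 125 genes followed singly, in control fish on the horizontal and exposed fish on the vertical axis, each with its SE; red points rose and blue points fell in controls, orange points had an adjusted p of the difference under 0.05, and the dashed line marks equal change. ccr9 lies at -3.05 and 2.49 and cfhr5 at 1.91 and -2.59, while hepc1 lies at 5.13 and 1.55.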

How the data were processed

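The table the authors deposited holds raw, whole-number read counts of 40 fish in 79140 gene entries. HISAT2, Cufflinks, HTSeq and DESeq2 appear in the submitters' processing notes, and neither their settings nor the build, annotation or strand of counting are stated, which makes values of near-identical, overlapping or antisense genes uncertain.

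The analysis used edgeR 4.0.16, with limma 3.58.1 loaded, in R 4.3.3. Its filterByExpr step (minimum count 10, minimum total 15) kept 30397 genes holding 99.9% of the counts. TMM scaling and a robust quasi-likelihood fit with 1 mean for each of 4 groups over all 40 fish were used, with 36 residual degrees of freedom. The common biological coefficient of variation was 0.371. Day 14 was tested against day 8 in controls and in exposed fish, together with the difference of these changes, and Benjamini-Hochberg adjustment ran over all genes, at a threshold of 0.05. SE is the size of the log2 fold change over the root of the F statistic. CPM uses the TMM-scaled library sizes. The fit was tested on simulated data.

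None of the 190 pairs of control libraries agreed within sampling noise across the 21895 genes averaging 50 counts or more (smallest chi-square per gene 50.7). DESeq2 1.42.0, other scalings and filters, covariates and left-out fish were alternatives.

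The members, the 37 gene lists and the subgroups were chosen with earlier results of these data known. Lists match symbols or names, the names in the file ending at the first comma, and each duplicated gene counts as a member. Of 2588 list entries 2002 passed the filter. Named genes are the 12 largest called rises and falls with a mean of at least 1 CPM and at least 8 of 10 day 14 fish beyond the day 8 median, the 6 largest at 300 CPM or more, the 5 of smallest p in each direction, up to 5 per list (2 where none was called) and the 5 of smallest p for the difference; of these the text gives a selection. Uncharacterized genes, transfer RNA genes and 5 entries whose names a spreadsheet had turned into dates are not named, and results of a few genes are not reported here.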

Additional observations from a re-analysis of the deposited data

Results flagged for a closer look

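Of 332 groups of 10 control fish examined, 38 had a highest or lowest fish farther from the next than Dixon's limit for 10 values, where chance gives about 1 in 20. No reason for these values was tested. Levels are in CPM, and the search was made on log2 values.

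Day 8 fish 1 was the lowest of its group in LOC106601018 (0.0212), LOC106584850 (1.17), LOC106563457 (11.5), LOC106581278 (6.87), LOC106587248 (0.593), wars (4.39), LOC106611136 (1.25), LOC106599148 (11.8), LOC106605924 (15.8) and LOC106571543 (58.6), and the highest in tdo2 (933.8). The low values were in chaperone, ribosome assembly, translation, polyamine and sterol genes.

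Day 8 fish 3 was the lowest in the 2 IGF-I genes that fell, LOC106609475 (10.2) and LOC100136517 (38.3), in LOC106601326 (88.9), LOC106586664 (15.6), LOC106577395 (0.143), LOC106605810 (17.9), LOC106563389 (17.2) and sqstm1 (12.4). All but the LDL receptor-like gene and the autophagy gene sqstm1 belong to the growth, fasting or clock lists.

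Day 14 fish 7 was the lowest in LOC106563393 (22.7) and LOC106606640 (1.71), and the highest in the sum of complement genes (84209) and of macrophage and neutrophil markers (390.2). Fish 9 of day 8 and fish 9 of day 14 had the highest sums of pancreas markers (106.5 and 118.2). Day 8 fish 2 was the highest in the sum of red cell markers (2492) and in LOC106607371 (197.7).

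In single genes, day 8 fish 7 was highest in LOC100380740 (109.9) and hdac6 (5.54), day 14 fish 4 highest in LOC106609475 (28.0), day 8 fish 10 lowest in LOC106588934 (2.42), day 14 fish 2 lowest in LOC106605773 (7.26), day 14 fish 9 highest in uspl1 (23.8), day 14 fish 8 highest in cfhr5 (394.5) and day 8 fish 4 lowest in LOC106604508 (0.364). Day 8 fish 10 had the highest sum of interferon response genes (420.5) and day 14 fish 3 the highest of stellate cell and endothelium markers (838.4). Day 14 fish 6 was the shortest, at 11.9 cm.

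The change from day 8 to day 14 differed between exposed and control fish in the test of the difference, by -1.64 on the log2 scale for hdac6, -1.55 for LOC106572926, 1.59 for LOC106588633, 1.89 for LOC106571345, -0.63 for s41a2 and 5.53 for ccr9, exposed minus control. The control change of ccr9 rested on day 8 fish 2 and 9.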

How the results depend on the processing

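The number of genes called in controls was 375 when fold changes were tested against 1.5 and 3066 with the red cell covariate, which was chosen after the data were seen. It was between 4738 and 6928 with each control fish left out in turn and between 4865 and 6599 under the other alternatives, except the replicate block. Members of the gene lists called went from 428 to 44, to 233 with that covariate, and to between 335 and 529 with a fish left out. The number of genes whose day change differed between exposed and control fish was 15, and 422 with total counts as the only scaling, 3 without a filter, 5 without the 3 light fish, 133 in DESeq2 and 0 to 104 with a control fish left out. The weight difference was 1.5 g, and 10.7 g without the light fish, which were left out by their weight.

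Between same-numbered fish of the days, the deviations from the group mean had correlations of -0.305 to 0.275 with a median of -0.0788, and 3 of 10 pairs were above 0.1. Of 20 fish 5 correlated best with their own number, and whether this exceeds chance was not tested. A fit with the replicate number as a block called 3684 control genes, 3482 of them among the 5877.

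Of 125 genes followed singly 119 were called, and 108 of these were called in all 20 fits that leave out 1 control fish. The direction turned for cfhr5 without day 14 fish 8 (-0.19, and up to 2.16 with another fish left out) and for LOC106571345, which was not called, without day 14 fish 9 (-0.026, and up to 0.19). For the low IGF-I gene LOC106572168, not called either, it turned without day 8 fish 1 and 3 and day 14 fish 7 (-0.046), an alternative added after seeing the data. Depth limits only genes well under 1 CPM, such as LOC106583637.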
